A study of Mus musculus with 20 samples.

Results

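Cycling myeloid cells were described in the scRNA-seq data of TAM, macrophages sorted from mouse tumors. A cell was counted as cycling when its corrected counts of Mki67 and Top2a summed to at least 3, provided that it held no Cd79a, which marks B cells, and no Cd3e or Cd3g, which mark T cells. By this rule 324 of 10885 cells were cycling, and 9396 cells that met the same B- and T-cell conditions without a single Mki67 or Top2a count were taken as non-cycling. Another 792 cells with a sum of 1 or 2 were in neither group. The members were chosen by these measured values, so the levels of Mki67 and Top2a, and of the many genes transcribed with them during division, are given as a description with no test.

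The TAM came from 4 mice bearing 4T1.2 breast cancer and were sequenced as 4 libraries, which the authors numbered 2 to 5. The labels give no treatment or time and call the cells macrophages isolated from tumors. The methods describe the animals of the study as young females and name BALB/cJ and μMT mice, the latter with a block in B-cell development, as hosts of 4T1.2 cells, a mouse mammary carcinoma line. Which of these hosts gave the libraries is not given in the sources used here. The sample labels could not be matched to the library numbers, so values are given by library and each library was taken as 1 replicate. The deposited values are the natural log of 1 plus a transcript count after SCTransform, which brings cells to a shared depth. All levels below are means of these corrected counts per cell. The median corrected count per cell was 8250 to 8336 in cycling cells of the 4 libraries and 7610 to 8248.5 in non-cycling cells, and because of the correction it does not give the depth of sequencing. Barcodes found in more than 1 library numbered 13 and belonged to 26 cells, 2 of them cycling. The sort did not leave macrophages alone: 3588 cells of all states carried neutrophil genes without monocyte or macrophage genes by the gates given below.

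Cells that divide copy their genome in S phase and separate the copies in mitosis at the end of G2. Mki67 encodes the Ki-67 protein that coats mitotic chromosomes and Top2a the topoisomerase that untangles replicated DNA, and their transcripts build up in late S phase and in G2 and M. Monocytes enter tumors from the blood and become macrophages, some tissue macrophages renew themselves by division, and mature neutrophils no longer divide, whereas their bone marrow precursors do. Genes of the late cell cycle are commonly switched on through a pair of short promoter elements, the CCAAT box and the cell cycle genes homology region (CHR), and genes of S phase through E2F sites.

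The promoters of the counted genes, and of the S phase and G2/M list genes with the largest difference between cycling and non-cycling cells, are shown to let the elements be read in place. Each is the 250 bases before the RefSeq transcription start in GRCm38.p6, read in the direction of the gene. Capitals mark every match to a CHR (TTTGAA or TTTAAA) or a CCAAT box (CCAAT), on either strand. Mki67 is on chr7:135716380-135716629 (minus strand), Top2a on chr11:99024190-99024439 (minus), Rrm2, a subunit of ribonucleotide reductase, on chr12:24708004-24708253 (plus) and Birc5, the mitotic survivin protein, on chr11:117848987-117849236 (plus).
Mki67: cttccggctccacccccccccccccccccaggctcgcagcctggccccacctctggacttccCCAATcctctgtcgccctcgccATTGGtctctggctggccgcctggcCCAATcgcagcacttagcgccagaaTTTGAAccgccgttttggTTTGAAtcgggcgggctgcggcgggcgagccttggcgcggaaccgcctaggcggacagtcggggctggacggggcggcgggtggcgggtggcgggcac
Top2a: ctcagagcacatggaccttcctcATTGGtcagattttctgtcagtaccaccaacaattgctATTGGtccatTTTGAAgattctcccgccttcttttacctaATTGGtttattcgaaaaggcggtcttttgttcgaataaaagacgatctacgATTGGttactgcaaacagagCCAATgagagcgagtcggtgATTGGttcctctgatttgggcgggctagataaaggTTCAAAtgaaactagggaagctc
Rrm2: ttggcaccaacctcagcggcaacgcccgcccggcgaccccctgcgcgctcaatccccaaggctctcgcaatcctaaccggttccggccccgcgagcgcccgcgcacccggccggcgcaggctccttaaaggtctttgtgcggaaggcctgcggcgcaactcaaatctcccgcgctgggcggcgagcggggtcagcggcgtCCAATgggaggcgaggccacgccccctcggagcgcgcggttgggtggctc
Birc5: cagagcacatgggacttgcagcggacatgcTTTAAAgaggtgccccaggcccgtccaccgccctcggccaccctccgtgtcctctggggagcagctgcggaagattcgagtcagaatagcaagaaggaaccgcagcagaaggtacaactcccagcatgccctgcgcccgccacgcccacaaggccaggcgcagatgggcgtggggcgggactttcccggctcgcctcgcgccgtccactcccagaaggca

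The Mki67 window held 2 CHR matches, 116 and 98 bases before the start, and 3 CCAAT matches farther upstream. In Top2a there were 6 CCAAT matches and 2 CHR matches, the nearer 23 bases before the start. Rrm2 held 1 CCAAT match and Birc5 1 CHR match. Of the 52 genes of the G2/M list, 45 had RefSeq promoters, 50 promoters in all. A CHR match was found in 54% of these and in 25.2% of the 32851 mouse promoters of the same length, a CCAAT match in 74% and 33.8%, and both in 44% and 8.78%. The E2F motif searched, TTTNNCGC, matched 10% and 4.28%, and none of the promoters shown. A match is a short string of letters and not a measured binding site. Of the 43 S phase genes 31 had a promoter in the reference, too few for a share.

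Cycling cells made up a similar small part of every library. In libraries 2 to 5, 116 of 3180, 69 of 2318, 62 of 2387 and 77 of 3000 cells passed the rule. These shares were 3.65% (exact 95% binomial interval 3.02 to 4.36), 2.98% (2.32 to 3.75), 2.6% (2 to 3.32) and 2.57% (2.03 to 3.2), with a mean of 2.95% ± 0.503 (SD, n = 4). The intervals cover counting error only. Library 2 was the highest, and the intervals of all 4 libraries overlapped. A further 25 cells with a sum of 3 or more were left out for Cd79a (0, 9, 9 and 7 by library) and 11 for Cd3e or Cd3g.

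Other marker genes of division were far more often detected in the selected cells. Pclaf, which encodes a factor bound to the replication clamp PCNA, was detected in 243 of the 324 cycling cells (75%) and in 407 of the 9396 non-cycling cells (4.33%). Nusap1, which encodes a protein of the mitotic spindle, was detected in 153 (47.2%) and 101 (1.07%). At the threshold the signal was graded. The 221 cells just under it, with a sum of 2, held on average 6.95 corrected counts of the S phase list and 21.1 of the G2/M list, and the 80 cells just inside it, with a sum of 3, held 6.88 and 31.3. Cells without Mki67 and Top2a held 3.01 and 11.7, and the 105 cells with a sum of 10 or more held 27 and 99.8. The cells nearest the threshold thus lay closer to the non-cycling cells than to those well above it.

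Identity was read from 5 genes that the cycling rule did not use. Csf1r encodes the receptor for M-CSF, C1qa a chain of complement C1q made by macrophages, and Ccr2 the receptor that draws monocytes to CCL2. Ngp encodes a granule protein of immature neutrophils and Csf3r the receptor for G-CSF. A cell was placed in the monocyte/macrophage gate when the counts of Csf1r, C1qa and Ccr2 summed to at least 3 and those of Ngp and Csf3r to less, and in the neutrophil gate in the reverse case. Of the 324 cycling cells, 44 had a monocyte/macrophage sum of 2 to 4 and 45 a neutrophil sum of 2 to 4, close to the gates. Of the 9396 non-cycling cells, 2095 and 2135 were as close, which bears on the denominators of the gate shares.

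Most cycling cells carried monocyte or macrophage genes. The monocyte/macrophage gate held 223 of the 324 cycling cells, which was 76.7%, 66.7%, 67.7% and 59.7% in libraries 2 to 5 (67.7% ± 6.97, SD, n = 4). Among non-cycling cells it held 33.8% ± 9.73. The neutrophil gate held 26 cycling cells, or 3.45%, 13%, 9.68% and 9.09% (8.82% ± 3.98), against 37% ± 8.46 of non-cycling cells. Its share of the cycling cells depended on their definition, at 15% with a cycling sum of 2, 4.72% with a sum of 5 and 2.84% with a count of each gene. Both sums were at least 3 in 42 cycling cells (12.6% ± 2.73), and neither was in 33 (10.8% ± 4.85).

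Seen from each gate, cycling cells were more frequent in the monocyte/macrophage gate than in the neutrophil gate in every library. The gates rest on 5 genes and do not set early marrow precursors apart. At least 1 count of Elane, Mpo or Ctsg, genes of such precursors, was found in 44 of 223 cycling and 78 of 3247 non-cycling cells of the monocyte/macrophage gate. Cycling cells were 5.68%, 7.71%, 5.04% and 5.11% of the monocyte/macrophage gate (5.88% ± 1.25, SD, n = 4) and 0.532%, 0.916%, 0.791% and 0.639% of the neutrophil gate (0.72% ± 0.169). The difference was 5.15, 6.79, 4.25 and 4.47 percentage points, with a mean of 5.16 ± 1.15. The groups did not overlap (exact sign-flip permutation test over libraries, two-sided, p = 0.13, below which 4 libraries cannot go). Cells with both sums were intermediate, at 5.31%, 2.21%, 2.7% and 2.57%, and cells with neither were at 1.18%, 2.03%, 1.56% and 3.07%. Non-cycling cells of the neutrophil gate had a median of 1366 detected genes and those of the monocyte/macrophage gate 2499, and the part of this in the difference was not tested.

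**Figure D1:**
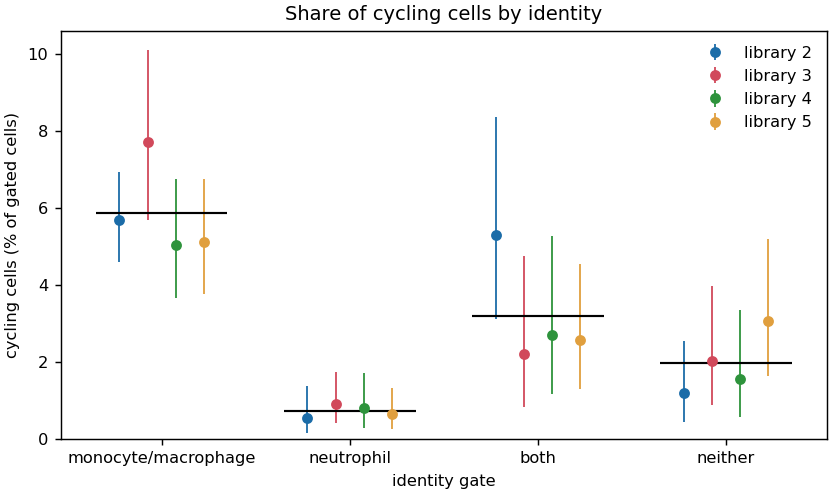
Share of cycling cells (vertical axis, percent of the cells of a gate) in the 4 identity gates (horizontal axis). Points are libraries, vertical lines exact 95% binomial intervals and horizontal bars means of 4 libraries. All libraries lie at or above 5.04% in the monocyte/macrophage gate and at or under 0.916% in the neutrophil gate.

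The few cycling cells of the neutrophil gate were of 2 kinds. Of the 26, 8 held at least 3 counts of Ngp, with none in library 2, 4 in library 3, and 2 each in libraries 4 and 5. They were 1.95% of the 410 cells of the gate with that much Ngp (exact 95% binomial interval 0.846 to 3.81), and library 2 had 0 of 60 such cells (exact 95% binomial interval 0 to 5.96, or up to 5% when a count of 0 is taken to allow 3). The other 18 were spread as 4, 5, 4 and 5 cells over the libraries.

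The Ngp cells held a broad set of division genes. Their median was 38 detected genes of the 95 on the S phase and G2/M lists, the same as in the 223 cycling cells of the monocyte/macrophage gate, where non-cycling cells had 9. One cell of library 4 had 549 counts of Ngp, 237 of Camp and 124 of Ltf, which encode granule proteins of immature neutrophils, together with 9 of Mki67, 11 of Top2a and 16 of Prtn3, which encodes proteinase 3 of promyelocytes. Another, in library 3, had 574 of Ngp, 292 of Camp and 233 of Ltf, but 3 of Mki67, none of Top2a and 7 list genes in all. The 8 cells ranged from 7 to 54 list genes.

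The 18 cells with less Ngp held few division genes. Every one of them had counts of only 1 of Mki67 and Top2a, and Nusap1 was found in 1. Their median was 6 detected list genes, against 5 in the 3419 non-cycling cells of the same gate. At least 10 list genes were found in 4 of the 18 and in 149 of the 3419, and the median summed G2/M list was 20.5 against 11. In the monocyte/macrophage gate, by comparison, 30.9% of cycling cells had only 1 of both genes.

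**Figure D2:**
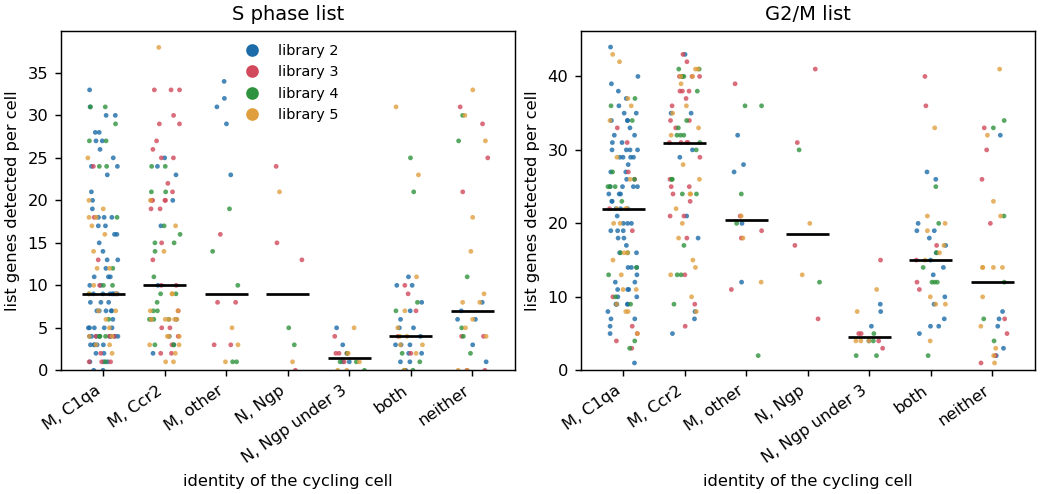
Number of genes detected per cycling cell (vertical axes) from the S phase list (left) and the G2/M list (right), by identity (horizontal axis), where M is the monocyte/macrophage gate split by C1qa and Ccr2 and N the neutrophil gate split by Ngp at 3 counts. Points are cells coloured by library and bars are medians over cells, and most cells of the neutrophil gate with Ngp under 3 lie low in both panels, where some cells of other identities lie too.

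The 33 cycling cells with neither identity held counts from several marker lists. At least 1 gene of the neutrophil list was detected in 23 of them, of the monocyte list in 22, of the macrophage list in 20, of the osteoclast list in 16 and of the dendritic list in 11, in which Cd209a and Siglech were at 0. These were 69.7%, 66.7%, 60.6%, 48.5% and 33.3% of the 33 cells. In cycling cells of the monocyte/macrophage gate the same lists were detected in 74%, 74.4%, 98.7%, 48.4% and 5.83%. Of these lists only the dendritic one was clearly more frequent in the 33 cells. The T-cell list, with Cd3e and Cd3g at 0 by the rule, was detected in 5 of the 33 (15.2%) and in 0.448% of cycling cells of the monocyte/macrophage gate. The NK list was detected in 3 of the 33 (9.09%) and in 0 cycling cells of that gate. A single count does not give the kind of a cell. Ighm was found in 8 of the 33. Some single markers were also counted, chosen after their values were seen. Flt3, Xcr1 or Clec9a of dendritic cells were detected in 7 cells. Ctsk, which encodes the bone-resorbing cathepsin K, reached 3 counts in 3, and Elane or Mpo, Ncr1 or Nkg7 of NK cells, and the keratins Krt8 or Krt18 were detected in 3, 3 and 2. With 6 to 13 cells per library no comparison was made.

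Within the monocyte/macrophage gate, the cycling cells were a mixture of macrophages with C1q and cells with Ccr2. The mean of C1qa was 26.4, 4.96, 8.31 and 12.8 in cycling cells of libraries 2 to 5 and 7.14, 2.62, 3.54 and 3.77 in non-cycling cells, so it was higher in cycling cells of each library. Ccr2 was at 1.26, 7.22, 4.31 and 5.15 in cycling and 4.21, 5.77, 5.72 and 6.1 in non-cycling cells, lower in libraries 2, 4 and 5 and higher in library 3. For the gate as a whole, Csf1r was lower in cycling cells of all 4 libraries, at 1.91, 1.59, 2.02 and 1.61 against 2.51, 2.55, 2.54 and 2.21. These genes formed the gate and were not tested.

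To follow both kinds, the gate was divided at 3 counts, a division made after these values were seen, so levels within it are a description, and the limma counts within it are given only as the share over all genes. Cells with C1qa of at least 3 are called C1qa cells, and those with less C1qa and Ccr2 of at least 3 are called Ccr2 cells. C1qa cells were 83.1%, 23.9%, 40.5% and 47.8% of the cycling cells of the gate and 30.1%, 19.3%, 20.9% and 20.9% of the non-cycling cells. Ccr2 cells were 11.2%, 65.2%, 47.6% and 45.7% of the cycling and 48%, 63.6%, 58.7% and 65.6% of the non-cycling cells. The makeup of the cycling cells thus differed widely between libraries, with C1qa cells prevailing in library 2 and Ccr2 cells in library 3, while that of the non-cycling cells varied less.

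**Figure D3:**
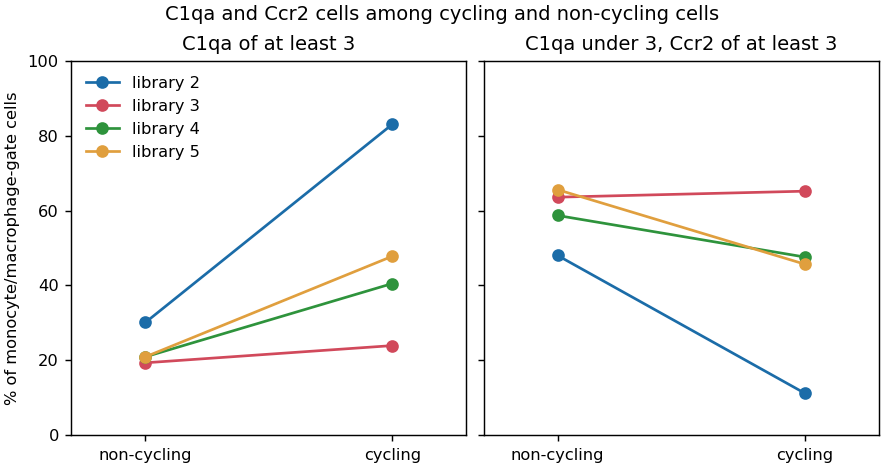
Share of the monocyte/macrophage-gate cells (vertical axis, percent) that had C1qa of at least 3 (left) or less C1qa and Ccr2 of at least 3 (right), among non-cycling and cycling cells (horizontal axis). Each line joins the 2 values of 1 library. The share of C1qa cells was higher among cycling cells in each library, from 23.9% in library 3 to 83.1% in library 2.

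With a cycling sum of at least 3, cycling cells were more frequent among C1qa cells than among Ccr2 cells in each library. Of the C1qa cells 13.5%, 9.32%, 8.63% and 10% were cycling (124 of 1084 cells, 10.4% ± 2.14, SD, n = 4). Of the Ccr2 cells 1.43%, 7.85%, 4.18% and 3.71% were (81 of 2124, 4.29% ± 2.66). The gap was widest in library 2 and narrowest in library 3. Both genes reached 3 counts in 12 of the cycling C1qa cells. Csf1r was at 1.84, 1.64, 2.35 and 1.73 in cycling C1qa cells and at 2.01, 1.89, 1.84 and 1.48 in non-cycling C1qa cells. It was thus lower in libraries 2 and 3 and higher in libraries 4 and 5. In Ccr2 cells it was lower in each library, at 1.9, 1.3, 1.7 and 1.29 against 2.51, 2.56, 2.53 and 2.31.

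Cycling Ccr2 cells held more G2/M transcripts than cycling C1qa cells, which was not tested. They also held more Mki67, a gene of the rule, at 5.3, 7.87, 7.5 and 7.76 against 3.15, 2.45, 3.71 and 3.27. Counts of only 1 of Mki67 and Top2a were found in 21% of cycling Ccr2 cells and 40.3% of cycling C1qa cells. The G2/M list follows these genes, so the difference is a description. The summed G2/M list, Mki67 and Top2a left out, was at 53.2, 45, 53.8 and 55.8 corrected counts per cycling C1qa cell and at 72.2, 102, 91.3 and 98.7 per cycling Ccr2 cell, with no overlap between the libraries of one and the other. The S phase list was at 17.7, 11.5, 27.6 and 16.5 in C1qa cells and at 19.9, 30.7, 17.8 and 11.9 in Ccr2 cells, which overlapped.

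Genes of the cell cycle machinery were then compared between the 223 cycling and 3247 non-cycling cells of the monocyte/macrophage gate. Differences are log2 of the mean plus 0.1, cycling minus non-cycling, averaged over libraries, taken for 6627 genes whose mean reached 0.1. This scale understates the difference of low genes. Of all genes tested, 24.6% were higher and 27.1% lower in cycling cells of all 4 libraries, and the median difference was -0.05. As these lists follow the genes of the rule, and many of their genes reached the minimum only through the cycling cells, the counts are a description of the genes that reached it. Of the helicase and origin genes that license DNA for copying, 12 of 12 were higher in all 4 libraries with a median difference of 1.65, and of the genes of DNA and nucleotide synthesis 23 of 23, with a median of 1.72. Of condensin and cohesin genes, which fold and hold chromosomes, 14 of 14 were higher (median 1.79), of kinetochore and checkpoint genes 16 of 16 (2.34), of spindle and cytokinesis genes 23 of 23 (2.50), of genes for anaphase and protein degradation 6 of 6 (2.33), of cyclins and CDKs 12 of 13 (1.53) and of histone genes 14 of 15 (2.31). On the phase lists, 29 of 31 S phase and 44 of 45 G2/M genes were higher. The exception among the latter, Gas2l3, was lower in every library.

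Pclaf showed the size of this program. Its mean was 4.33, 5.65, 4.86 and 3.83 in cycling cells and 0.0998, 0.0915, 0.091 and 0.092 in non-cycling cells, a log2 difference of 4.61. Birc5 was at 2.46, 2.74, 2.67 and 2.78 against 0.0453, 0.0305, 0.0356 and 0.056 (4.29). For both genes the cycling cells lay far above the non-cycling cells in every library, with little spread among libraries. The tubulin-binding gene Stmn1 differed by 4.28, Nusap1 by 4.0, Smc2 of condensin by 4.03, Ube2c, which tags mitotic cyclins for destruction, by 3.82, Cenpf of the kinetochore by 3.79, Ccnb2 (cyclin B2) by 3.35, Rrm2 by 3.34, Cdk1 by 3.1 and Mcm7 of the replicative helicase by 2.67. The histone gene Hist1h2ap was at 18.7, 26.2 and 26.8 in libraries 2 to 4 and at 3.65 in library 5. Histone genes have near-identical copies, so the level of a single one is uncertain.

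Genes that restrain the cycle did not move together. Of 13 such genes, 4 were higher and 7 lower in cycling cells of all 4 libraries (24.6% and 27.1% of all genes). Btg1, an antiproliferative gene of resting leukocytes, was at 3.74, 5.7, 8.4 and 5.93 in cycling and 12.2, 15.3, 14.6 and 14.6 in non-cycling cells, a difference of -1.29. Cdkn1a, encoding the CDK inhibitor p21, differed by -0.83. The INK4 inhibitors Cdkn2c and Cdkn2d were higher in cycling cells, by 1.17 and 1.11.

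The other genes of the monocyte/macrophage-gate cells were tested by limma with library as a block and Benjamini-Hochberg adjustment over all 6627 genes. With an adjusted p under 0.05, 1195 of the 6627 (18%) were higher and 1270 (19.2%) lower in cycling cells, or 37.2% in all, the genes of the rule, the gates and the cell cycle lists included. Of the 6454 genes outside these, 1039 rose and 1261 fell. The number lower among all genes was 834 without library 2 and 843 without library 3. Among genes on no cell cycle list, the largest increases that all libraries shared were in Diaph3, Asf1b, Hist1h3e, Nucks1 and Cdkn3. Most of these serve division or chromatin too, so they are given as a description with no test, like the lists above. Diaph3, which encodes a formin of the cleavage furrow, was at 0.393, 0.457, 0.667 and 0.783 in cycling cells and at most 0.0156 in non-cycling cells of any library (log2 difference 2.57). Nucks1, which encodes a nuclear DNA-binding phosphoprotein, was at 3.73, 4.46, 4.62 and 4.39 against 0.746, 0.61, 0.676 and 0.66 (2.51). The histone chaperone Asf1b, the histone H3 gene Hist1h3e and the CDK phosphatase Cdkn3 differed by 2.55, 2.54 and 2.49.

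The largest decreases that all libraries shared were in secreted and interferon-induced genes. Inhba, which encodes the subunit of activin A, was at 0.135, 0.13, 0.262 and 0.0217 in cycling cells and at 3.27, 1.6, 2.19 and 1.18 in non-cycling cells (-3.19, SE 0.196, limma adjusted p = 8.18e-06). Cxcl1, a chemokine that draws neutrophils, was at 2.6, 0.435, 0.429 and 0.0435 against 3.91, 2.58, 4.3 and 3.51 (-2.65, SE 0.506, limma adjusted p = 0.00418), with a small difference in library 2. Rsad2, an interferon-induced antiviral enzyme, fell by 2.49 on the log2 scale, Saa3, an acute-phase protein, by 2.22, and the chemokine Cxcl3 by 2.08. With no filter on low levels, Cxcl1 and Saa3 did not pass (limma adjusted p = 0.0957 and 0.0563). With cells of a sum of 2 included, Cxcl3 did not pass either and its difference was smaller (-0.94, limma adjusted p = 0.0536).

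**Figure D4:**
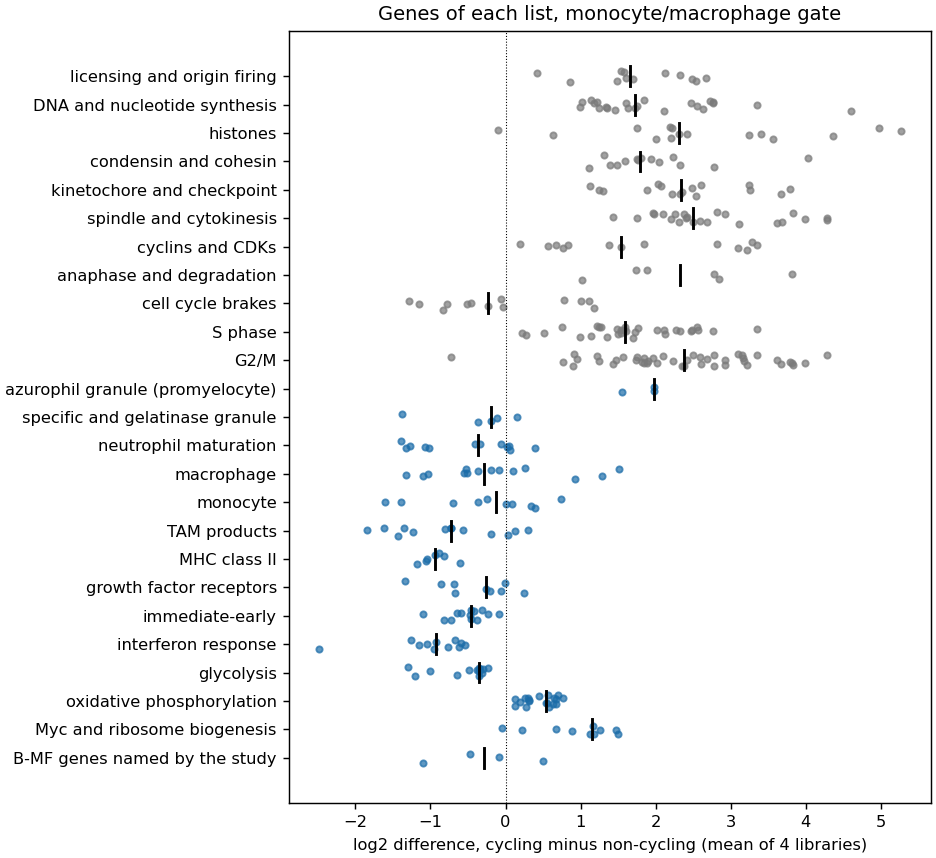
Log2 difference between cycling and non-cycling cells of the monocyte/macrophage gate (horizontal axis, mean of 4 libraries) for the genes of each list (vertical axis). Points are genes and bars list medians. Grey lists follow the genes that chose the cells and were not tested. Blue lists were, apart from Elane and Mpo among the azurophil granule genes and Ifit1, Mx1 and Usp18 among the interferon response genes. A TAM product that did not reach the minimum in both groups is plotted but not counted. Grey lists other than the brakes have medians of 1.53 or more, and the medians of the 7 MHC class II and all 11 plotted interferon response genes lie at -0.94 and -0.92. For the 8 interferon response genes that are counted the median was -0.94.

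Of the azurophil granule genes, which are transcribed in promyelocytes and other early marrow precursors, 3 of 5 reached the minimum mean. Elane and Mpo reached it only through the cycling cells, where they were high, so their levels are a description with no test. Elane, encoding neutrophil elastase, was at 0.135, 0.674, 0.667 and 0.326 in cycling and at 0.0108, 0.00813, 0.0541 and 0.032 in non-cycling cells (a log2 difference of 1.98). Prtn3, which was above the minimum in non-cycling cells too, was at 0.506, 3.83, 2.69 and 2.35 against 0.243, 0.553, 0.447 and 0.461 (1.97, SE 0.259, limma adjusted p = 0.000632). Mpo, myeloperoxidase, differed by 1.56. Library 2 had the lowest level of each in cycling cells. The summed markers of neutrophils in these cycling cells were 54.7, 141, 89.4 and 95, close to the 60.1, 122, 98.4 and 83.7 of non-cycling cells. Both groups had passed the same limit on Ngp and Csf3r, so these sums are not read for or against early precursors. A separate list of 8 neutrophil precursor genes, Elane among them, summed to 0.888, 5.54, 3.93 and 2.89 in cycling cells. In non-cycling cells of the gate it summed to 0.274, 0.659, 0.558 and 0.58, and the difference was not tested. Of 5 specific and gelatinase granule genes of later neutrophils none rose, against 18% of all genes, and 1 fell, a share near the 19.2% of all genes. This was Mmp9 (-1.38), a call lost when library 2, 3 or 4 was left out (limma adjusted p = 0.0523 to 0.0572), with no filter on low levels (0.16), with a cycling sum of 2 (-0.48, limma adjusted p = 0.135), with a count of each cycling gene (0.13) and with an identity sum of 2 (0.118).

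The macrophage list was split in direction. C1qc was at 16.7, 3.35, 4.98 and 8.26 in cycling and at 4.4, 1.4, 2.18 and 2.27 in non-cycling cells (1.52, SE 0.167, limma adjusted p = 0.000238), and C1qb and the fractalkine receptor Cx3cr1 rose by 1.28 and 0.93. The call of C1qb was lost without the library block (limma adjusted p = 0.0518). Within C1qa cells and within Ccr2 cells C1qb differed by only 0.37 and 0.49. In the other direction, Apoe, a lipid carrier made by macrophages, was at 16.1, 4.46, 7.38 and 13.7 against 23.4, 18.4, 16.2 and 18.7 (-1.03, limma adjusted p = 0.011). The Fc receptor gene Fcgr1 fell by 1.10, Cd68 by 0.56 and Spp1 by 0.51. Within C1qa cells alone, Fcgr1 differed by 0.13 in the other direction. In all 3 genes rose and 5 fell of 14, against 18% and 19.2% of all genes, so the share that rose was near that of all genes, and C1qa, made into 1 complex with C1qb and C1qc, is a gate gene.

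Of 10 monocyte genes none rose and 3 fell, against 18% and 19.2% of all genes. Thbs1, encoding the matrix protein thrombospondin 1, was at 0.854, 1.54, 3.12 and 2.91 in cycling and 5.93, 5.41, 5.92 and 6.45 in non-cycling cells (-1.61, limma adjusted p = 0.00179, or 0.0549 with no filter on low levels). Plac8, a gene of young monocytes, fell by 1.40 and Ifitm6 by 0.70, but the call of Ifitm6 was lost when library 2, 3 or 4 was left out (limma adjusted p = 0.0514 to 0.0875), with no filter on low levels (0.13) and when the neutrophil sum had to be 0 (0.122). Ly6c2, which encodes a surface protein of inflammatory monocytes, did not pass (0.74, limma adjusted p = 0.132). It was lower in cycling cells of library 2, at 0.449 against 0.952, and higher in libraries 3 to 5, at 3.67, 2.33 and 2.09 against 1.05, 1 and 0.951, and it passed without library 2 (1.3, limma adjusted p = 0.00238).

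Of 13 products by which TAM act on the tumor, 12 reached the minimum in both groups of cells. Of these 12, 7 fell and none rose, against 18.9% and 15.6% of all such genes. The chemokine gene Ccl2 was higher in cycling cells of all 4 libraries without passing the test (0.30, limma adjusted p = 0.0958). Arg1, encoding arginase 1, was at 0.472, 0.891, 0.405 and 1.15 in cycling and at 3.57, 3.63, 2.88 and 1.36 in non-cycling cells, with a small gap in library 5 (-1.85, SE 0.351, limma adjusted p = 0.0041). The call of Arg1 was lost when a count of both Mki67 and Top2a was required (-1.12, limma adjusted p = 0.0802) and with no filter on low levels (0.088). Vegfa, the vascular growth factor, was at 0.82, 0.804, 1.33 and 1.59 against 2.81, 3.82, 2.95 and 2.94 (-1.43). Il1rn, the IL-1 receptor antagonist, fell by 1.62 and Cd274, encoding PD-L1, by 1.23. In the list of neutrophil maturation genes, which includes cytokines shared with monocytes, 5 of 12 fell and none rose, against the same shares. Cxcl2 was at 40.2, 23.7, 30.3 and 26.9 against 76.7, 75.1, 81.2 and 78.4 (-1.39) and Il1b at 19.6, 12.2, 31.3 and 16 against 51.4, 37.4, 47.8 and 51.6 (-1.32).

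All 7 MHC class II genes, which present antigen to CD4+ T cells, were lower in cycling cells, with a median of -0.94, and each was called, against 19.2% of all genes, but the size depended on the library. H2-Ab1 was at 10.9, 1.7, 8.12 and 5.78 in cycling and at 12.5, 10.2, 13.5 and 14.4 in non-cycling cells (-1.19, SE 0.314, limma adjusted p = 0.0177). The gap was widest in library 3 and narrow in library 2. The call was lost without library 5 (limma adjusted p = 0.052), without the library block (0.0715) and with no filter on low levels (0.162). H2-Eb1, which was level in library 2, lost its call without library 3, 4 or 5 and under 7 of the other alternatives (limma adjusted p = 0.0575 to 0.229). With no filter on low levels H2-Aa and Cd74 did not pass either (limma adjusted p = 0.158 and 0.159), nor did they without the library block (0.0683 and 0.0838), and Cd74 did not without library 5 (0.0512) or H2-Aa with a neutrophil sum of 0 (0.0507).

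Of 11 interferon response genes compared, Ifit1, Mx1 and Usp18 reached the minimum only through the non-cycling cells, where they were higher, and are not counted. The other 8 fell, with a median of -0.94, where 18.9% of all genes that reached the minimum in both groups of cells did and 19.2% of all genes tested. Rsad2 was at 0.697, 0.109, 0.405 and 0.087 in cycling and 2.07, 1.72, 2.32 and 1.54 in non-cycling cells (limma adjusted p = 0.000195), and Isg15, a ubiquitin-like protein, at 3.73, 1.33, 1.74 and 1.24 against 5.28, 3.49, 4.65 and 4.64 (-1.25). Of the immediate-early genes, which respond within minutes to stimuli and to handling of cells, 7 of 13 fell and none rose, against 19.2% and 18% of all genes. Ier3 was at 4.11, 4.93, 4.43 and 4.74 against 10.1, 10.4, 8.68 and 10.3 (-1.10, limma adjusted p = 0.000314), and Junb of the AP-1 family fell by 0.82. Egr1 was just outside the threshold (-0.48, limma adjusted p = 0.0503), and it passed under 5 alternatives, among them a cycling sum of 5 (-1.15, limma adjusted p = 0.00658) and an identity sum of 2 (-0.96, limma adjusted p = 0.00292). Of the 4 genes that the study names for B-MF, its macrophages made from B cells, Ier3 was lower as given, Egr1 was at the edge as described, and Ier2 (-0.09, limma adjusted p = 0.75) and Slc40a1 (0.50, limma adjusted p = 0.213) did not pass. The study also used CD79a protein to mark B-MF in tumors. Cells with a count of Cd79a were left out by the rule, so the 4 genes were not read in them.

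Some glycolysis genes fell in cycling cells, and some genes of oxidative phosphorylation and most of those of ribosome building rose. Of 14 glycolysis genes 5 fell and none rose (19.2% and 18% of all genes), and all 14 were lower in every library, as 27.1% of all genes were. The glucose transporter gene Slc2a1 was at 1.04, 1.24, 1 and 0.957 in cycling and 2.63, 3.34, 2.45 and 2.6 in non-cycling cells (-1.29, SE 0.123, limma adjusted p = 0.000105), and hexokinase 2 (Hk2) fell by 1.01. Of 19 oxidative phosphorylation genes 10 rose and none fell, against 18% and 19.2% of all genes, with a median of 0.54. Atp5b of ATP synthase was at 5.71, 5.8, 5 and 4.83 against 3.44, 2.92, 3.07 and 2.97 (0.76) and cytochrome c (Cycs) rose by 0.68. Of 10 genes tested from the list of Myc and ribosome biogenesis 8 rose and none fell, against the same shares, with a median of 1.15. Myc, Mycl and Mycn themselves were not among the genes tested. Ncl, encoding nucleolin, was at 10.8, 5.87, 7.9 and 6.11 against 3.97, 2.85, 3.18 and 2.99 (1.18), and Nop58, a factor of ribosomal RNA processing, rose by 1.5.

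Receptors for growth factors and cytokines gave no gene that rose. Of 9 tested 4 fell, against 19.2% of all genes, among them Csf2rb, the shared beta chain of the GM-CSF and IL-3 receptors, at 1.9, 2.41, 3.95 and 2.59 in cycling and 4.75, 4.63, 4.74 and 5.17 in non-cycling cells (-0.86), a call lost with no filter on low levels (limma adjusted p = 0.0592). The related Csf2rb2, Ifngr1 and Il4ra were the others. Ifngr1 and Il4ra lost the call with no filter too (limma adjusted p = 0.0827 and 0.0836), and Ifngr1 without the library block (0.0809) and with a neutrophil sum of 0 (0.0799).

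The comparison was then made in C1qa cells and in Ccr2 cells apart, as a description, since the makeup of the cycling cells differed from that of the non-cycling cells. Azurophil granule genes were found in the Ccr2 cells. At least 1 count of Elane, Mpo or Ctsg (cathepsin G) was found in 42 of the 81 cycling Ccr2 cells and in none of the 124 cycling C1qa cells, which allows up to 2.42% of cells with such a count (3 counts of the total) and sets no limit on cells that express the genes below detection. Non-cycling cells had it in 69 of 1843 Ccr2 and 0 of 791 C1qa cells. Elane was at 1.1, 1.03, 1.3 and 0.714 in cycling Ccr2 cells and at 0.0224, 0.0128, 0.0896 and 0.0488 in non-cycling Ccr2 cells, a log2 difference of 2.99. Prtn3 was at 3.8, 5.8, 5.25 and 5.1 against 0.41, 0.796, 0.678 and 0.657 (2.80). In the Ccr2 cells all 4 libraries thus showed the difference, library 2 included, where only 10 cycling Ccr2 cells were found.

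The cycling Ccr2 cells also had more of some monocyte genes and less of some macrophage genes than non-cycling Ccr2 cells. Ly6c2 was at 3.1, 5.57, 4.25 and 4.48 in cycling and 1.46, 1.51, 1.45 and 1.32 in non-cycling Ccr2 cells (1.51), and F13a1, encoding a coagulation factor chain, was at 4.2, 8.6, 6.35 and 9.67 against 3.13, 3.35, 3.06 and 3.37 (1.07). Of 10 monocyte genes 5 were higher and 2 lower in all 4 libraries, against 19.5% and 24.4% of the 6524 genes compared. By the limma adjusted p, 9.27% of those genes were called higher and 10.4% lower in cycling Ccr2 cells. These shares include the genes of the rule, the gates and the cell cycle lists. Plac8 was among the lower monocyte genes, at 9.4, 10.6, 13.1 and 12.2 against 19.6, 20.4, 20.1 and 21.9.

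Of 13 macrophage genes that reached the minimum in both groups of Ccr2 cells, 9 were lower and none higher in all 4 libraries, and C1qb had a log2 difference of 0.49 with both signs among the libraries. Of all such genes 22.7% were lower in all 4 libraries. Apoe was at 9.6, 0.633, 1.7 and 1.9 in cycling and 20.6, 15.7, 15.3 and 18.4 in non-cycling Ccr2 cells (-2.95). No count of Arg1 was found in the 81 cycling Ccr2 cells, and its mean was 3.22, 3.29, 2.16 and 0.992 in non-cycling Ccr2 cells. The C1q genes were near 0 in all Ccr2 cells, as the division requires of C1qa. Of TAM products that reached the minimum in both groups 6 of 10 and of such interferon response genes 5 of 6 were lower in all 4 libraries, with Rsad2 at 0.2, 0.0667, 0.2 and 0.0952 against 2.32, 1.87, 2.37 and 1.57 (-3.18).

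In C1qa cells fewer genes stood apart, with 22.1% of the 6449 genes compared higher and 12.9% lower in all 4 libraries. By the limma adjusted p, 4.30% of them were called higher and 1.49% lower, the genes of the rule, the gates and the cell cycle lists included. Of 14 macrophage genes that reached the minimum in both groups of C1qa cells, 2 were higher and none lower in all 4 libraries. Cx3cr1 was at 2.04, 1.91, 1.35 and 1.27 in cycling and 0.801, 0.632, 0.34 and 0.369 in non-cycling C1qa cells (1.49), and C1qc at 20, 14, 12.2 and 17.1 against 14.4, 6.77, 9.99 and 10.4 (0.63). Apoe was lower in libraries 2 to 4, at 18, 15.7 and 16.1 against 32.9, 30.6 and 21.7, and higher in library 5, at 26.9 against 22.2. Arg1 was at 0.514, 2.64, 1 and 2.41 in cycling and 4.2, 2.72, 2.97 and 1.7 in non-cycling C1qa cells (-0.96), lower in libraries 2 and 4, nearly level in library 3 and higher in library 5. Of TAM products 3 of 12 and of interferon response genes 3 of 8 were lower in all 4 libraries by the same count, as were 12.3% of all such genes. Of 8 monocyte genes 4 were lower in all 4 libraries and none was higher. Ly6c2 was at most 0.0811 in cycling and 0.263 in non-cycling C1qa cells of any library, and Plac8 was at 2.03, 3.18, 4.24 and 2 against 4.32, 5.69, 5.01 and 5.31 (-0.87).

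**Figure D5:**
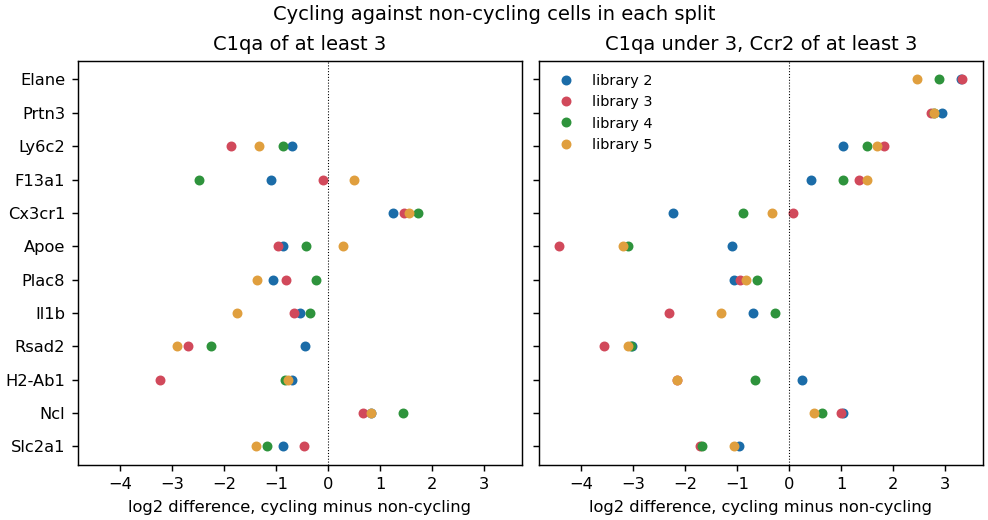
Log2 difference between cycling and non-cycling cells (horizontal axes) for 12 genes (vertical axis) in C1qa cells (left) and Ccr2 cells (right), with a point for each library. Elane and Prtn3 were under the minimum level in C1qa cells and have no points there. Ly6c2 lies above 0 in the Ccr2 cells of all 4 libraries. In the C1qa cells it reached the minimum only through the non-cycling cells, so its direction there is not read.

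Other differences had the same direction in both kinds. Slc2a1 was at 1.08, 3, 1.06 and 1 in cycling and 2.05, 4.16, 2.52 and 2.78 in non-cycling C1qa cells (-0.97), and at 1.2, 0.767, 0.55 and 1.05 against 2.44, 2.75, 1.97 and 2.31 in Ccr2 cells (-1.36). Ncl differed by 0.93 in C1qa and 0.79 in Ccr2 cells, Nop58 by 1.56 and 1.05, Rsad2 by -2.08 and -3.18 and Btg1 by -0.73 and -1.26, each in all 4 libraries. H2-Ab1 was at 9.86, 1.18, 8 and 8.64 against 16.1, 12, 14.4 and 14.8 in C1qa cells (-1.39). In Ccr2 cells it was at 12.1, 2.17, 8.45 and 3.1 against 10.2, 10, 13.4 and 14.1 (-1.18), higher in library 2 and lower in the others. No test was made of the difference between both kinds of cells.

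The comparison over all 324 cycling and 9396 non-cycling cells mixes identities, since neutrophils are common in the latter. Of 6245 genes tested by limma, 2283 (36.6%) were higher and 1255 (20.1%) lower in cycling cells, or 56.7% in all, and the median difference over all genes was 0.14. These counts include the genes of the rule, the gates and the cell cycle lists. Of the 6076 genes outside these, 2129 were higher and 1247 lower. Of 12 neutrophil maturation genes 11 were lower. The largest increases outside the cell cycle lists that all libraries shared were in Nucks1 (2.93), Prtn3 (2.63), Hist1h3e (2.52), Ccdc34 (2.52) and Selenoh (2.48), of which Hist1h3e and Ccdc34 reached the minimum only through the cycling cells and are a description with no test. The largest decreases were in Inhba (-2.33), Saa3 (-2.27), Retnlg (-2.07), Areg (-2.03) and Stfa2 (-2.0). Retnlg, a gene of mature neutrophils, was at 2.24, 15.6, 5.21 and 6.52 in cycling and 16.4, 34.9, 22 and 31.3 in non-cycling cells. The mean of Ngp was higher in cycling cells of all 4 libraries, as 39.7% of all genes were, at 1.78, 19.7, 10.9 and 10.7 against 1.24, 4.76, 3.18 and 2.9. These means rest on few cells, with 331 and 483 counts in 2 cells of library 5. Neutrophil-gate cells with at least 3 counts of Ngp were 2.47% of cycling and 4.03% of non-cycling cells, so such cells were not more common among cycling cells.

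Markers of other cells were looked up because the rule removed B cells by Cd79a alone. Ighm, encoding the heavy chain of IgM, was detected in 91 of 223 cycling cells (40.8%) and 496 of 3247 non-cycling cells (15.3%) of the monocyte/macrophage gate, or 28.7% and 10.4% after every cell was thinned to 5000 corrected counts. Its mean was 1.18, 0.5, 0.667 and 0.565 in cycling and 0.237, 0.181, 0.296 and 0.239 in non-cycling cells (log2 difference 1.24, SE 0.181, limma adjusted p = 0.00109). In non-cycling cells of the neutrophil gate, which should lack the gene, it was detected in 2.05%, and in the 282 cells with Cd79a in 81.6%, with a mean of 7.87. Median corrected counts were 8328 and 8517 in cycling and non-cycling cells of the monocyte/macrophage gate, 7524 in the neutrophil gate and 7575.5 in cells with Cd79a. It was found in 63 of 124 cycling C1qa cells and 25 of 81 cycling Ccr2 cells.

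Of the rest of the B-cell list only Cd79b was found in cycling cells of the monocyte/macrophage gate. Of its 10 genes, 8 had no count there, among them Cd79a by the rule, Ms4a1, Igkc, Jchain, Ebf1, Pax5 and Vpreb3. Ighm together with Cd79b was found in 10 of the 223 and in 43 of the 3247 non-cycling cells. Within C1qa cells it was found in 10 of 124 cycling and 32 of 791 non-cycling cells, and in 0 of 81 cycling Ccr2 cells. In the cycling cells of the gate the summed list was at 1.27, 0.543, 0.786 and 0.609. The T-cell list was at or under 0.0217 and the NK list at 0 in each library. Doublets were not searched for, and their part in Ighm was not tested.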

How the data were processed

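TAM from 4 mice were profiled by droplet scRNA-seq of transcript 3' ends (10x Chromium). Per the study's methods, the authors counted transcripts with Cell Ranger (the submitters' processing notes also list STAR and mm10, without a role), applied a minimum of detected genes per cell and ran SCTransform in Seurat. The table they deposited gives 15333 genes in 10885 cells, on a natural log scale after adding 1 to the corrected count, and no uncorrected counts were used. Values were converted back to whole numbers (within 0.002). No cell was removed beyond the rule, and no doublet caller was run. The ATAC-seq and cultured cells of the series were not used here.

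For each gate, corrected counts were averaged per library over cycling and non-cycling cells, and log2(mean + 0.1) was compared by limma's lmFit and eBayes with library as a block. Genes needed a mean of at least 0.1 and libraries at least 10 cells per arm. With 4 to 9 cycling cells per library, the neutrophil gate could not be fitted, nor could cycling cells of both gates or their balance of S phase and G2/M lists be compared by a test. P-values measure the spread between libraries, and cycling and non-cycling cells of 1 library were paired since they come from the same mouse. The members, gates and gene lists were chosen with earlier results of these data known. Named genes were the 5 largest differences in each direction per comparison (adjusted p under 0.05, the same sign in all libraries, outside the cell cycle lists), up to 4 leading members of each list, and the marker and gate genes. The test was also run on simulated counts with independent noise for each gene. That run cannot show how well the calls made here are calibrated. Alternatives were other gates, pseudocounts, filters, scaling, no block and each library left out. Software was R 4.3.3 with limma 3.58.1 and Python 3.11.15 with pandas 2.3.3, numpy 2.4.6, scipy 1.17.1 and matplotlib 3.10.9.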

Additional observations from a re-analysis of the deposited data

Results flagged for a closer look

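In 7 of 79 groups of 4 library values, 1 library stood far from the others by Dixon's criterion, which chance meets in about 1 of 20 groups. The share of cycling cells among cells with both identity sums was 5.31% in library 2, above the other 3. In the monocyte/macrophage gate, the log2 difference between cycling and non-cycling cells of Atp5b was 0.965 in library 3, above the other libraries. That of Chil3, a chitinase-like gene of myeloid cells, was -2.164 in library 2. The difference of Csf2rb2 was -0.803 in library 4, and that of Cxcr4, a chemokine receptor, -1.862 in library 5. Ifngr1, a chain of the interferon gamma receptor, differed by -1.285 in library 2, and Il1rn by -2.226 in library 3.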

How the results depend on the processing

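The share of cycling cells was 4.99% with a sum of 2, 1.76% with a sum of 5 and 2.08% with a count of each gene. The monocyte/macrophage gate then held 56.3%, 77.5% and 75% of cycling cells, or 50.7% when the neutrophil sum had to be 0, and the neutrophil gate 15%, 4.72% and 2.84%. The neutrophil share therefore depends on the threshold. Leaving out each library in turn gave 834 to 993 genes lower in cycling cells of the monocyte/macrophage gate, and 834 and 843 without libraries 2 and 3. Within C1qa cells 373 genes passed (277 higher, 4.30%, and 96 lower, 1.49%) and within Ccr2 cells 1286 (605 higher, 9.27%, and 681 lower, 10.4%), divisions chosen after seeing the data and with fewer cells. Outside the genes of the rule, the gates and the cell cycle lists, 166 were higher and 94 lower of 6280 in C1qa cells. In Ccr2 cells 461 were higher and 676 lower of 6353 such genes. Without the library block, which pairs cycling and non-cycling cells of the same library, 2359 genes passed in the monocyte/macrophage gate (1208 higher, 1151 lower) and 3255 in all cells (2156 and 1099). Among named genes in the gate, the pairing changed the call for C1qb (adjusted p = 0.0518 by limma without the block), H2-Ab1 (0.0715), H2-Aa (0.0683), H2-Eb1 (0.122), Cd74 (0.0838), Ifitm6 (0.0879) and Ifngr1 (0.0809). It changed no other call of a named gene.

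Over 73 gene results, 1069 of 1185 alternative values kept direction and side of the threshold, 95 lost the call, 8 gained it and 13 changed sign. Within C1qa cells alone, 25 results were kept, 32 lost the call and 2 changed sign. Within Ccr2 cells alone, 43 were kept, 14 lost the call and 4 changed sign. Many calls of the whole gate were thus not seen in C1qa cells apart, where fewer cells were compared. With no filter on low values, which changes the genes tested, 17 of the named genes lost the call. Sign changes were C1qc at -0.078 (Ccr2 cells), Chil3 at 0.24 (without library 2, and down to -0.609 without library 3) and 0.25 (Ccr2 cells), Fcgr1 at 0.13 (C1qa cells), Ly6c2 at -1.19 (C1qa cells), Ier2 at 0.10 (without library 2, and down to -0.309 without library 3), 0.014 (other identity sum at 0) and 0.41 (Ccr2 cells), and Lcn2 at 0.057 (without library 4, and down to -0.638 without library 5), 0.075 and 0.040 (identity sums of 2 and 5), 0.32 (other identity sum at 0) and 0.57 (Ccr2 cells). The sign of Ly6c2 in C1qa cells is not read, since it reached the minimum there only through the non-cycling cells. The cause of these changes was not tested. With a cycling sum of 2, 3 libraries allowed a fit of the neutrophil gate, with 12 genes higher and 0 lower of 4807 by limma (567 at an unadjusted p under 0.05). Between cycling cells of both gates, 2005 genes were then higher and 479 lower of 6151 in the monocyte/macrophage gate. Genes of the rule, the gates and the cell cycle lists were not left out of the counts of either fit. These counts are therefore not read as changes beyond the choice of the cells. Shallow counts after the correction limit the detection of low genes per cell.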
